A study of Homo sapiens with 12 samples.

Results

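The arrays labelled HLY were compared with those labelled SUDHL2, both from cultures at 1% oxygen. The comparison took 6 of the 12 arrays of the study, 3 biological replicates of each label, and 9621 genes that were detected on at least 3 of the 12 arrays out of 47230 probes. HLY (HLY-1) and SUDHL2 are human lymphoma lines that the study describes as diffuse large B-cell lymphoma (DLBCL) of the activated B-cell type, HLY as an OxPhos line, which leans on mitochondrial respiration, and SUDHL2 as a non-OxPhos line. Both were grown in RPMI medium with fetal bovine serum and antibiotics in the presence of CO2. The other 6 arrays carry the same line labels at 21% oxygen. Each line is 1 model of its lymphoma, and the text of the study used here does not name the length of the hypoxia. RNA was read on Illumina HumanHT-12 v4 BeadChips, on which a probe's fluorescence stands for the level of its transcript. Levels are log2 intensities after background correction and quantile normalization. Differences are HLY minus SUDHL2 at 1% oxygen, each with the standard error (SE) of limma's fit and a p adjusted over all genes tested. A gene is called past the threshold at an adjusted p under 0.05.

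The line labels did not hold together across oxygen levels. Correlated over the tested genes, a description since genes are no replicates, the HLY arrays at 1% gave a median r of 0.752 against the SUDHL2 arrays at 1% but 0.984 against those at 21%. Between the SUDHL2 arrays at 1% and the HLY arrays at 21% it was 0.976. Within the 1% groups the median was 0.988 for HLY and 0.983 for SUDHL2. Which line was on which array cannot be told apart from these values, so every value here belongs to a label and not to a line. The median intensity of an array at 1% lay between 111 and 149, with 12322 to 14925 probes above background (detection p under 0.01). Of the 21% arrays, SUDHL2 replicate 2 stood apart. It lay over 1 log2 above the other 2 of its group in 38 of the 284 genes that were over 3 log2 lower on the HLY arrays at 1%. It enters the standard errors here, and 271 of the 272 named genes tested without it kept their side of the threshold at 1%, with HK2 the exception. TKTL1 fell below the detection filter.

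At 1% oxygen, 3217 genes (33.4%) were higher on the HLY arrays and 3189 (33.1%) higher on the SUDHL2 arrays, together 66.6% of the genes tested, and the 3 arrays of a label did not overlap with the other 3 for 6445 genes (67%). Differences ran from -9.11 to 9.01 with a median of -0.01, and 3177 genes differed by over 1 log2, of which 1671 were higher on the HLY arrays and 1506 on the SUDHL2 arrays. Centring the arrays on their medians in place of quantile normalization moved the median of all genes to 0.28 and the split to 3385 and 1654, from 50.2% to 67.2% of calls higher in HLY. Directions of single genes and lists are therefore relative to the other genes on the same arrays. Counts of list members below are to be read against the shares of all genes, 33.4% higher in HLY and 33.1% in SUDHL2. Of the genes past the threshold, 576 were above background on no HLY array and 742 on no SUDHL2 array at 1%. For these the fold is given as a lower bound, the bright label's mean against the lowest signal that counted as above background. Exact permutation tests of 3 arrays against 3 cannot go below a two-sided p of 0.1, the value for each of the 264 of 273 named genes whose labels did not overlap.

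**Figure D1:**
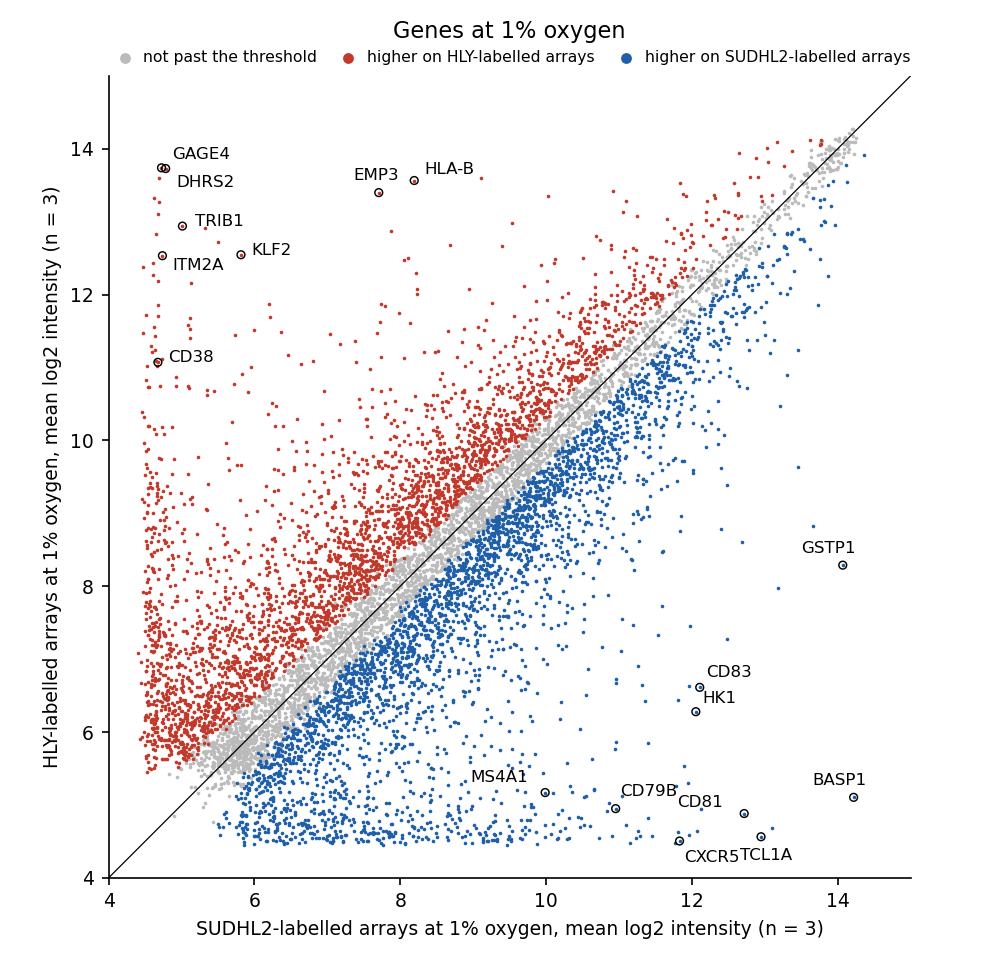
Mean log2 intensity of each gene on the 3 HLY-labelled arrays (vertical) against the 3 SUDHL2-labelled arrays (horizontal) at 1% oxygen, coloured by the call at an adjusted p under 0.05, with the line of equal level. Points along the left and lower edges are genes at background on 1 label only, such as GAGE4 and CD38 on the left and TCL1A and BASP1 below.

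B cells carry an antigen receptor whose signal runs through the CD79A and CD79B chains to the kinases SYK and BTK, and they display co-receptors such as CD20 (MS4A1), CD22 and CD40. When a B cell becomes an antibody-secreting plasma cell it shuts off most of these genes, together with the transcription factors that maintain them, and turns on CD38, CD138 (SDC1) and BCMA (TNFRSF17). Activated-type DLBCL is thought to stall on the way between these states, while germinal-centre-type DLBCL keeps the BCL6 programme.

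B cell surface genes were high on the SUDHL2 arrays at 1% oxygen and mostly at background on the HLY arrays. Of 15 tested markers, 13 were higher in SUDHL2, 1 in HLY and 1 did not pass, with a median difference of -2.65 (-1.99 with genes at background set to their bound), against a median of -0.01 over all genes. Of the 15, 9 were above background on no HLY array at 1% and entered through the other groups. Among the 3 detected on all 12 arrays, 2 were higher in SUDHL2 and 0 in HLY (median -1.65). MS4A1, the CD20 antigen that rituximab binds, read 5.17, 5.11 and 5.22 on the HLY arrays and 10.12, 10.03 and 9.81 on the SUDHL2 arrays, at least 19.1-fold higher in SUDHL2 (difference -4.82 ± 0.30, adjusted p = 3.78e-09). CD79B, a signalling chain of the antigen receptor, read 4.99, 4.97 and 4.89 against 10.94, 10.81 and 11.11, at least 37.4-fold higher in SUDHL2 (adjusted p = 6.67e-12). Both genes were above background on all 3 SUDHL2 arrays and on none of HLY, and the labels did not overlap. CD79A, the partner chain, read 5.43, 5.25 and 5.93 against 11.34, 12.16 and 12.20 (difference -6.36 ± 0.41, adjusted p = 5.37e-09) and passed the detection limit on 1 HLY array. The inhibitory co-receptor CD22 read 5.21, 5.04 and 5.73 against 7.19, 8.08 and 7.88 (at least 3.96-fold higher in SUDHL2, adjusted p = 2.57e-07). CD40, through which T cells help B cells, and FCRLA, an Fc receptor-like protein of germinal centre cells, were at least 13.8-fold and at least 15.1-fold higher in SUDHL2. CD83, an activation marker, was above background everywhere and differed by -5.49 ± 0.25. PTPRC, the leukocyte common antigen CD45, was above background on 2 SUDHL2 arrays and no HLY array, at least 1.2-fold higher in SUDHL2 (adjusted p = 1.01e-05). The 1 surface marker that was higher in HLY was CD38.

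Several defining B cell markers were absent from the HLY-labelled arrays at 1% and present in part on the SUDHL2-labelled arrays. MS4A1, CD79B, CD22, CD40, FCRLA and PTPRC were above background on no HLY array at 1%, and CD79A on 1. PAX5, the B-lineage identity factor, and FCER2 were above background on none of the 12 arrays, so neither separates the labels. Of 19 surface markers with a named probe, 4 (CD37, CD38, CD83 and TNFRSF13B) were above background on all 3 HLY arrays and 12 on all 3 SUDHL2 arrays at 1%. Of 24 B-lineage transcription factors, 17 were above background on all 3 HLY arrays and 21 on all 3 SUDHL2 arrays. The summed level of the 15 tested markers, on the linear scale, ran from 3739 to 3990 on the HLY arrays and from 14047 to 17366 on the SUDHL2 arrays. In bulk RNA a smaller number of cells of a kind and less RNA per cell cannot be told apart.

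The antigen receptor's signalling genes showed the same side. Of 18 tested, 13 were higher in SUDHL2 and 1 in HLY (median -2.33, with bounds -1.90). Among the 7 detected on all 12 arrays, 4 were higher in SUDHL2 and 0 in HLY (median -1.51). BTK, the kinase that ibrutinib inhibits, read 5.27, 5.04 and 5.29 on the HLY arrays and 10.65, 10.66 and 10.65 on the SUDHL2 arrays (at least 30.4-fold, adjusted p = 6.29e-10). INPP5D, the lipid phosphatase SHIP1, was at least 28.2-fold and PIK3CD, the leukocyte p110 delta subunit of PI3-kinase, at least 20.6-fold higher in SUDHL2. PRKCB, the protein kinase C isoform that links BTK to NF-kappaB, read 4.49, 4.57 and 4.58 against 9.18, 9.01 and 9.21 (at least 10.6-fold, adjusted p = 3.72e-13), and its 4 other kept probes lay on the same side, by -1.71 to -3.61.

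Octamer factors act on B cell promoters through the motif ATTTGCAT. POU2F2, the B cell octamer factor OCT2, read 4.41, 4.49 and 4.46 on the HLY arrays, all at background, and 7.33, 7.95 and 7.99 on the SUDHL2 arrays (at least 4.08-fold, adjusted p = 2.28e-10). The motif was looked for on both strands, from 250 bases before to 50 bases after the transcription start of the 65 tested surface, signalling, transcription factor and tetraspanin genes, 52 of which had a RefSeq promoter (GRCh38.p14). It was present in 3 (5.77%), against 1.77% of all 34961 promoters, which are not only those of tested genes. These 3 genes, PRKCB and the tetraspanins CD53 and TSPAN13, were all higher on the SUDHL2 arrays. The 4 lists searched lean to that side themselves, with 86.7%, 72.2%, 52.2% and 58.3% of members higher in SUDHL2. The side of these 3 genes is therefore no separate result. Their stretches are shown with the motif in capitals, 5′ to 3′ on the strand of the gene.
PRKCB (chr16:23835876-23835937, plus strand): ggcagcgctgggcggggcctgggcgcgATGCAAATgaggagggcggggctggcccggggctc
CD53 (chr1:110871137-110871198, plus strand): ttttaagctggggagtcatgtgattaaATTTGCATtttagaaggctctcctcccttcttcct
TSPAN13 (chr7:16753639-16753700, plus strand): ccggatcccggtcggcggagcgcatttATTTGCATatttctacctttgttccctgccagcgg
Counted from the transcription start, the motif begins at -80 in PRKCB, where it is on the opposite strand, at -46 in CD53 and at -89 in TSPAN13. CD53, a tetraspanin of leukocytes, read 4.90, 4.96 and 4.77 against 10.11, 10.14 and 10.24 (at least 21.6-fold higher in SUDHL2, adjusted p = 1.66e-10), and TSPAN13 was at least 2.72-fold higher in SUDHL2. A match describes these letters and is no sign of binding.

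Among 23 B-lineage transcription factors, 12 were higher in SUDHL2 and 8 in HLY (median -1.56), but among the 13 detected on all 12 arrays, which leaves out genes at background on 1 label, 6 were higher on each side (median 0.27). IRF8, a factor of germinal centre B cells, read 5.53, 5.17 and 5.22 on the HLY arrays and 11.98, 11.95 and 11.89 on the SUDHL2 arrays (at least 74-fold, adjusted p = 1.75e-10). EBF1, which specifies the B lineage, read 4.70, 4.82 and 4.45 against 9.89, 9.59 and 9.53 (at least 15.3-fold, adjusted p = 9.62e-13). BCL6, the repressor that maintains the germinal centre state, was above background on all 6 arrays at 7.51, 7.89 and 7.77 against 11.67, 11.53 and 11.55 (difference -3.86 ± 0.22), and TCF4, an E-box factor amplified in some activated-type lymphomas, differed by -3.65 ± 0.18. On the other side, KLF2, a factor of quiescent and migrating lymphocytes, read 12.42, 12.71 and 12.51 on the HLY arrays and 6.18, 5.95 and 5.32 on the SUDHL2 arrays (6.73 ± 0.19, adjusted p = 1.02e-12), and XBP1, which drives the secretory apparatus, differed by 1.45 ± 0.13.

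Plasma cell genes ran opposite to the B cell genes. Of 12 tested, 9 were higher in HLY and 3 in SUDHL2 (median 1.90). All 12 were without overlap between the labels, as were 67% of all genes tested. TNFRSF17, the receptor BCMA that keeps plasma cells alive, read 11.59, 11.70 and 11.75 on the HLY arrays and 5.19, 4.80 and 5.37 on the SUDHL2 arrays, at least 51.7-fold higher in HLY (adjusted p = 9.27e-14). CD38, an ectoenzyme of plasma cells, read 10.94, 11.33 and 10.94 against 4.77, 4.69 and 4.56 (at least 33.9-fold, adjusted p = 7.05e-14). SDC1, the proteoglycan CD138, read 10.29, 10.54 and 10.24 against 5.79, 6.13 and 6.65 (4.16 ± 0.19, adjusted p = 9.03e-11). These 3 genes were high on every HLY array and low on every SUDHL2 array. SLAMF7, the target of elotuzumab, differed by 4.76 ± 0.17 and passed the detection limit on 1 SUDHL2 array. TXNDC5, a disulfide isomerase of the secretory pathway, differed by 2.32 ± 0.13. MZB1, a chaperone for antibody assembly, lay on the other side at 7.06, 6.27 and 6.74 against 9.49, 9.65 and 10.09 (-3.05 ± 0.20, adjusted p = 8.3e-09). The same genes at 21% oxygen took the opposite order by label (TNFRSF17 -6.88, SDC1 -4.48, MS4A1 5.12, CD79B 5.96, HLY minus SUDHL2).

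**Figure D2:**
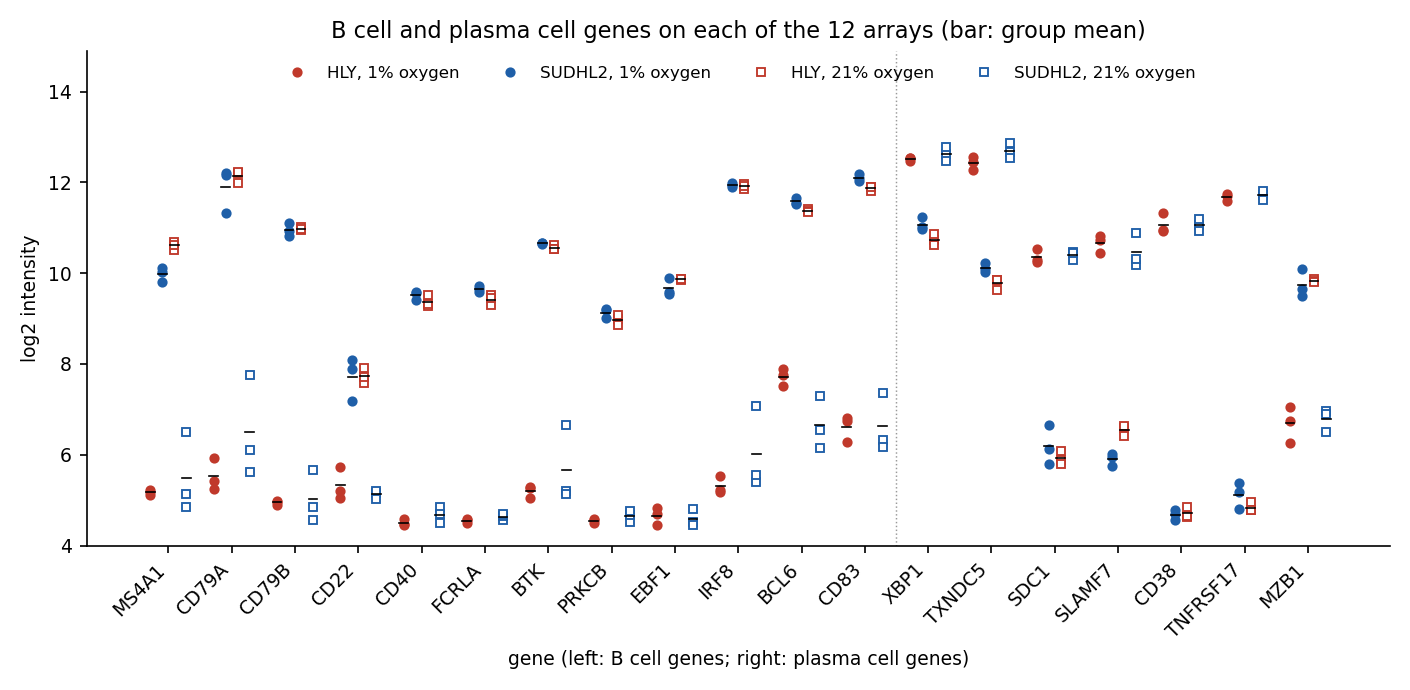
Log2 intensity (vertical) of 12 B cell genes and 7 plasma cell genes on each of the 12 arrays, filled circles for 1% and open squares for 21% oxygen, red for HLY and blue for SUDHL2, with a bar at each group mean. At 1% the red and blue circles do not overlap for any of the 19 genes, which was so for 67% of all genes tested. The open squares show the labels in the opposite order.

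Genes that sort DLBCL into the germinal centre and activated types were mostly higher in SUDHL2 in both classes. Of 9 germinal centre genes, 8 were higher in SUDHL2 and 1 in HLY (median -1.92, with bounds -1.38). LMO2, an adaptor of transcription complexes, read 4.93, 4.96 and 4.94 on the HLY arrays, all at background, and 12.02, 12.09 and 12.26 on the SUDHL2 arrays (at least 84-fold, adjusted p = 9.5e-10). MME, the surface peptidase CD10, was above background on 2 SUDHL2 arrays and no HLY array (at least 1.6-fold), and STAP1, an adaptor in antigen receptor signalling, was at least 5.51-fold higher in SUDHL2. Of 15 activated-type genes, 9 were higher in SUDHL2 and 4 in HLY (median -1.35, and -0.49 with the mean of a gene's kept probes). Among them were the death-promoting BCL2 relative BMF (-4.06 ± 0.24), the fucosyltransferase FUT8 (-3.34 ± 0.16) and the ectonucleotidase ENTPD1 (-2.24 ± 0.14). On the HLY side was CCND2, a G1 cyclin, at 12.75, 12.57 and 12.84 against 5.46, 6.17 and 4.87 (7.22 ± 0.24). Fits without SUDHL2 replicate 1 or 2 gave 8.25 and 8.48. Those fits also chose the brightest probe anew, and the readings above do not give so large a change. Which step made it was not tested.

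Antigen presentation genes stood higher on the HLY arrays. In the MHC class II list 13 of 16 were higher in HLY and 1 in SUDHL2 (median 1.37, with bounds 0.81). HLA-DRA, the alpha chain of HLA-DR, read 13.08, 12.94 and 12.91 on the HLY arrays and 9.49, 9.42 and 9.67 on the SUDHL2 arrays (10.9-fold higher in HLY, 3.45 ± 0.12, adjusted p = 4.99e-12). HLA-DPA1 differed by 3.47 ± 0.14 and HLA-DMA, which edits peptide loading, by 1.89 ± 0.14. In the MHC class I list 9 of 17 were higher in HLY and 4 in SUDHL2 (median 0.72, with bounds 0.22). HLA-B read 13.53, 13.53 and 13.63 against 7.99, 8.33 and 8.26 (41.4-fold higher in HLY, adjusted p = 2.35e-13), and HLA-F, HLA-G and HLA-C differed by 5.00, 4.27 and 2.77. TAP1, which pumps peptides into the endoplasmic reticulum, differed by 2.63 ± 0.14, and CANX, the chaperone calnexin, lay on the SUDHL2 side (-1.86 ± 0.16). HLA genes vary between people and have near-identical relatives, so that a probe can read alleles and copies unequally, and a single HLA value is uncertain.

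Chemokine and homing receptors split by member. Of 16, 9 were higher in HLY and 6 in SUDHL2 (median 0.84). CXCR5, which guides B cells into follicles, read 4.46, 4.47 and 4.58 on the HLY arrays and 11.74, 12.09 and 11.66 on the SUDHL2 arrays (at least 68.6-fold higher in SUDHL2, adjusted p = 7.05e-10), and P2RY8, which holds B cells in the germinal centre, differed by -3.46 ± 0.15. CXCR4, which retains plasma cells in bone marrow and is itself induced by hypoxia in many cells, read 10.32, 9.94 and 10.28 against 5.08, 4.69 and 4.84 (at least 18.3-fold higher in HLY, adjusted p = 1.2e-12). CCR2, a receptor better known from monocytes, was at least 27-fold higher in HLY, with its 4 other kept probes on the same side, and CCR7, which leads lymphocytes to lymph nodes, differed by 2.75 ± 0.12.

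In the TNF family, 7 of 15 genes were higher on each side (median -0.41). Among the 6 detected on all 12 arrays, 5 were higher in HLY and 0 in SUDHL2 (median 0.96). LTB, which with LTA builds follicles, read 4.77, 4.58 and 4.59 against 12.01, 11.99 and 12.22 (at least 81.1-fold higher in SUDHL2, adjusted p = 3.49e-09), and LTA differed by -5.09 ± 0.21. The cytokine TNF and the memory B cell receptor CD27 were at least 5.68-fold and at least 9.36-fold higher in SUDHL2. Of 21 NF-kappaB subunits and targets, 13 were higher in SUDHL2 and 7 in HLY (median -0.72, and -0.35 under median centring). BCL2A1, a survival gene that NF-kappaB drives, read 4.85, 5.29 and 4.84 against 9.07, 8.09 and 8.80 (at least 7.58-fold higher in SUDHL2), the subunit REL was at least 2.07-fold higher in SUDHL2, the adaptor MYD88, which is mutated in many activated-type lymphomas, differed by -2.08 ± 0.14, and NFKBIZ, a nuclear co-factor of NF-kappaB, by -2.02 ± 0.13. JAK-STAT genes had no common side. Of 21, 8 (38.1%) were higher in SUDHL2 and 7 (33.3%) in HLY, near the 33.1% and 33.4% of all genes. Their median of -0.06 turned to 0.08 under median centring. STAT3, which carries IL6 and IL10 signals, read 8.97, 8.61 and 8.79 on the HLY arrays and 12.28, 12.47 and 12.44 on the SUDHL2 arrays (-3.61 ± 0.16, adjusted p = 7.07e-11), and IL10RA was at least 15.5-fold higher in SUDHL2. IL6 and the receptor chain IL6ST lay on the HLY side, by 1.67 ± 0.16 and 2.96 ± 0.18.

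In the BCL2 family, 7 of 16 genes were higher in SUDHL2 and 4 in HLY (median -0.42, and -0.01 under median centring). BCL2, the anti-death gene of many B-cell lymphomas, read 7.77, 8.18 and 7.78 against 9.36, 9.31 and 9.22 (-1.39 ± 0.16, adjusted p = 2.19e-06), while MCL1, on which plasma cells depend, read 11.94, 11.88 and 12.10 against 9.79, 10.32 and 10.55 (1.75 ± 0.18, adjusted p = 8.43e-07). Both were above background on all 6 arrays without overlap. The death-promoting members BID and BCL2L11 (BIM) differed by -2.79 ± 0.16 and -1.52 ± 0.20.

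The largest differences were of genes that were bright on 1 label and at background on the other. On the SUDHL2 side, BASP1, a membrane-bound signalling protein, led at 5.02, 5.38 and 4.92 on the HLY arrays and 14.24, 14.19 and 14.23 on the SUDHL2 arrays, at least 359-fold higher in SUDHL2 (difference -9.11 ± 0.96, adjusted p = 1.13e-06). Its wide SE comes from the 21% SUDHL2 arrays, which read 5.14, 10.18 and 4.70. The lysosomal protease CTSH (at least 166-fold), the AKT co-activator and B-cell oncogene TCL1A (at least 149-fold) and the tetraspanin of the B-cell co-receptor CD81 (at least 127-fold) followed, each with all 3 HLY arrays at background. Further leading genes were the tropomyosin gene TPM2 (at least 75.2-fold), the pseudogene NAPSB (at least 65.7-fold), the sphingosine phosphatase SGPP2 (at least 67.9-fold), the platelet and leukocyte substrate PLEK (at least 52.6-fold), the matrix gene OLFML2A (at least 47-fold) and the smooth muscle actin ACTG2 (at least 43-fold).

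On the HLY side, the 15 leading genes held 9 GAGE genes, cancer-testis antigens that normal adult tissue outside the testis does not make. GAGE4 read 13.58, 13.98 and 13.66 on the HLY arrays and 4.70, 4.89 and 4.59 on the SUDHL2 arrays (at least 216-fold higher in HLY, difference 9.01 ± 0.15, adjusted p = 4.78e-15). GAGE genes are near-identical copies in a cluster on chromosome X, and their probes can read each other's RNA, so that the 12 tested, which differed by 1.78 to 9.01, are uncertain as separate genes. DHRS2, a mitochondrial reductase, read 13.57, 14.01 and 13.60 against 4.82, 4.82 and 4.71 (at least 214-fold, adjusted p = 4.78e-15). TRIB1, a pseudokinase that targets C/EBP factors for degradation, read 12.92, 12.89 and 13 against 5.38, 4.86 and 4.80 (at least 124-fold, adjusted p = 2.98e-14). The germ cell gene ASZ1 (at least 84-fold), the membrane protein ITM2A (at least 93.5-fold) and the cold shock protein YBX3 (at least 77.5-fold) followed.

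Cancer-testis antigens differed in every tested member, with 11 of 20 higher in HLY and 9 in SUDHL2 (median 1.37, with bounds 0.34, and -1.78 over the 6 detected on all 12 arrays). SSX1 read 11.29, 11.41 and 11.17 against 4.55, 4.6 and 4.61 (at least 39.5-fold higher in HLY), and MAGEC1 and MAGEB2 were at least 15.7-fold and at least 17.2-fold higher in HLY. SSX2 gave at least 37.5-fold, with SSX1 a close copy. MAGEA1 ran the other way at 6.51, 6.69 and 6.71 against 11.79, 11.93 and 12.17 (-5.33 ± 0.27, adjusted p = 3.3e-10).

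**Figure D3:**
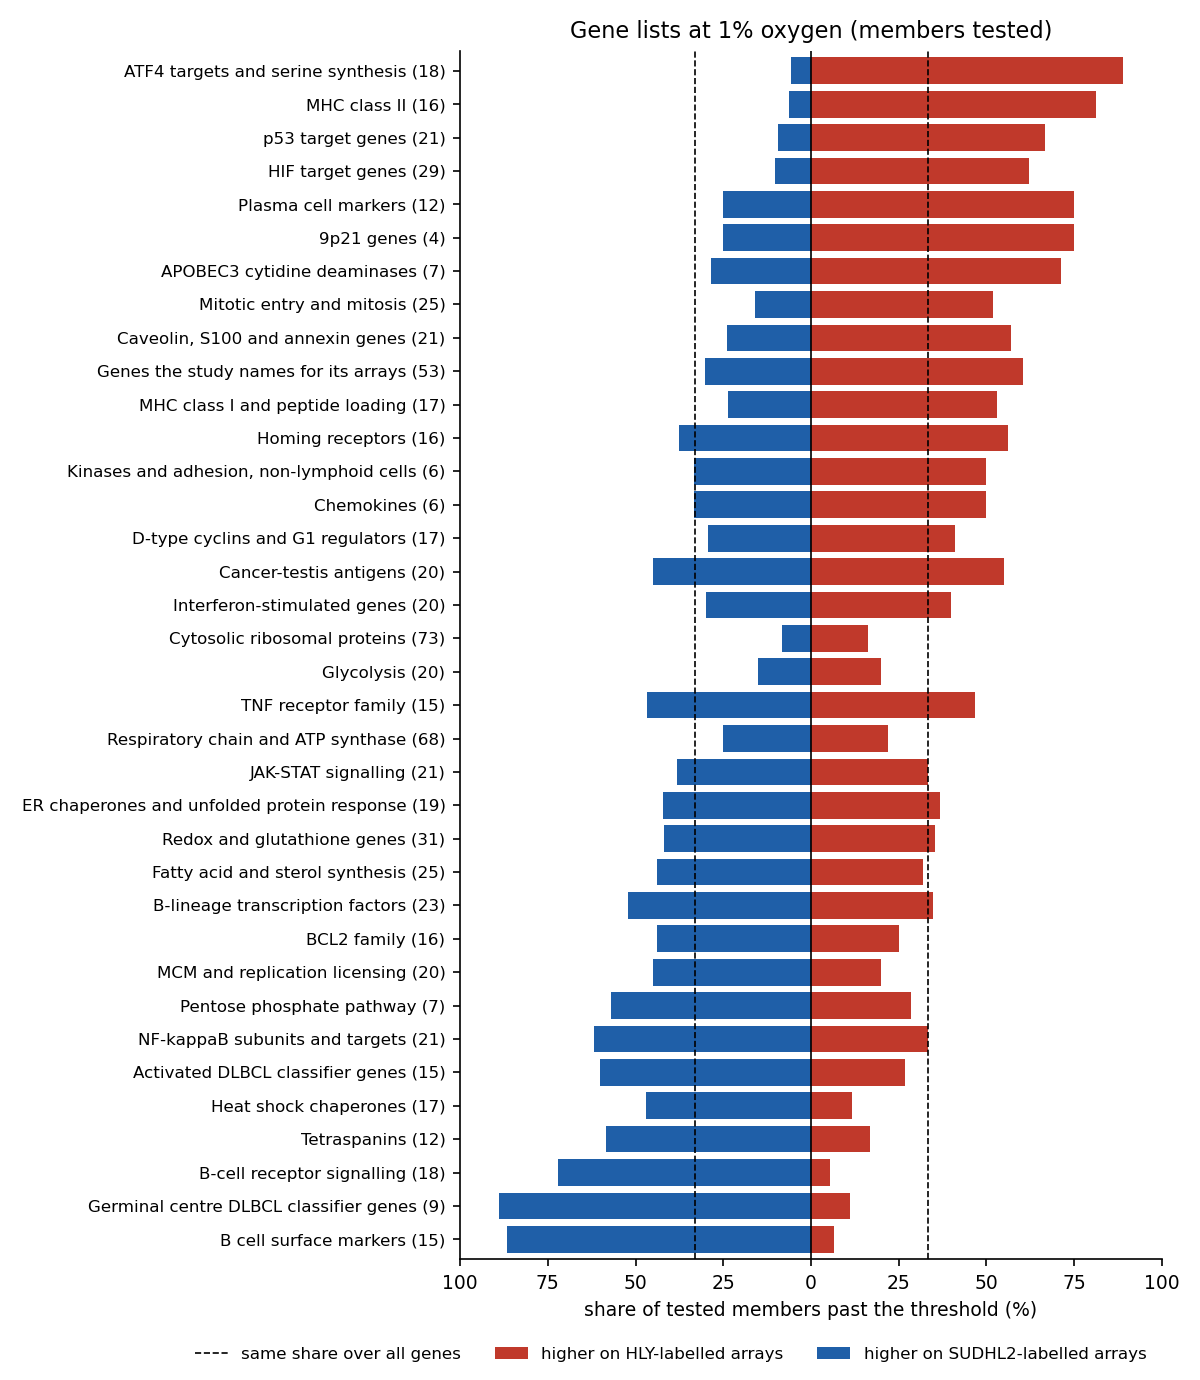
Share of the tested members of each gene list, in percent, that were higher on the HLY-labelled arrays (red, to the right) or on the SUDHL2-labelled arrays (blue, to the left) at 1% oxygen, with the number of members tested in brackets and dashed lines at the shares over all genes, 33.4% and 33.1%. Among these lists, which had at least 4 members tested, germinal centre classifier genes (88.9%) and B cell surface markers (86.7%) reach furthest left, and the ATF4 (88.9%) and MHC class II (81.2%) lists furthest right.

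Genes of cell shape, membrane domains and calcium binding mostly lay on the HLY side, with 12 of 21 caveolin, S100 and annexin list members higher in HLY and 5 in SUDHL2 (median 1.02). CAV1, the coat protein of caveolae, read 11.59, 11.46 and 11.51 on the HLY arrays and 6.57, 6.23 and 5.18 on the SUDHL2 arrays (5.52 ± 0.27, adjusted p = 2.42e-10). The scaffold AHNAK was at least 42.9-fold and the annexin ANXA1 at least 5.7-fold higher in HLY, and EMP3, S100A6 and the intermediate filament VIM differed by 5.69 ± 0.16, 4.42 ± 0.16 and 4.39 ± 0.13. Tetraspanins lay on the other side, with 7 of 12 higher in SUDHL2 and 2 in HLY (median -1.02), among them TSPAN33, a marker of activated B cells (-4.68 ± 0.16), and CD37 (-1.65 ± 0.23).

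Hypoxia-inducible factors (HIF) are stabilised when oxygen is low and bind hypoxia response elements to raise genes of glycolysis, iron and pH handling and blood supply. All 6 arrays come from 1% oxygen, so the comparison asks where the labels differ within hypoxia. Of 29 HIF target genes tested, 18 were higher in HLY, 3 in SUDHL2 and 8 did not pass (median 0.89 against -0.01 over all genes). NDRG1, a hypoxia and stress marker, read 10.78, 10.90 and 11.06 on the HLY arrays and 6.17, 5.18 and 6.14 on the SUDHL2 arrays (33.9-fold, 5.08 ± 0.25, adjusted p = 2.22e-10). DDIT4, which restrains mTORC1 under stress, read 12.80, 12.41 and 12.84 against 8.47, 8.82 and 8.75 (4.0 ± 0.16, adjusted p = 2.41e-11). BHLHE40, a transcriptional repressor, read 12, 11.61 and 11.91 against 7.65, 7.91 and 7.82 (4.05 ± 0.15, adjusted p = 9.81e-12). In each of these genes the HLY arrays were all higher, and at 21% the SUDHL2-labelled arrays were higher by a like amount (NDRG1 -5.47, DDIT4 -4.27, BHLHE40 -3.81, HLY minus SUDHL2). VEGFA, the vessel growth factor, differed by 1.71 ± 0.21 and the nuclear receptor RORA by 4.35 ± 0.25. The adenylate kinase AK4 was the largest of those higher in SUDHL2, at 5.90, 5.77 and 5.89 against 9.14, 8.91 and 8.55 (-3.01 ± 0.16). Fits without HLY replicate 1 or 3 gave -4.29 and -4.30. Those fits also chose the brightest probe anew, and the 3 HLY readings lie too close for 1 of them to move the difference so far. Which step moved it was not tested.

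A core of the hypoxia response element, TACGTG, was looked for on both strands in the same promoter window. It was present in 5 of 25 HIF targets with a promoter (20%), against 3.22% of 34961 promoters. The targets were ANKRD37, BHLHE40, DDIT4, EGLN1 and P4HA1, and the first 3, whose levels at both oxygen levels are compared below, are shown with the motif in capitals.
ANKRD37 (chr4:185396670-185396729, plus strand): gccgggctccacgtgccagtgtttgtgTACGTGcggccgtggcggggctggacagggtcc
BHLHE40 (chr3:4979261-4979320, plus strand): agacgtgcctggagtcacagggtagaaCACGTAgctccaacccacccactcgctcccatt
DDIT4 (chr10:72273771-72273830, plus strand): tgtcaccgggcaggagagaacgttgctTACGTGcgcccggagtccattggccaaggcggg
It begins at -144 in ANKRD37, at -149 in BHLHE40, on the opposite strand, and at -126 in DDIT4. EGLN1, which marks HIF for degradation, did not pass the threshold at 1%. The other 4 were higher in HLY, as were 62.1% of the tested HIF targets.

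Most glycolytic enzymes did not pass the threshold. Of 20 tested, 4 were higher in HLY, 3 in SUDHL2 and 13 did not pass, with a median of -0.03 that turned to 0.18 under median centring. These counts were unsteady, with 2 higher in HLY when SUDHL2 replicate 2 or 3 at 1% or SUDHL2 replicate 2 at 21% was left out, and 6 higher in SUDHL2 without SUDHL2 replicate 1 at 1%. HK1, the hexokinase of most tissues, read 6.18, 6.61 and 6.04 on the HLY arrays and 12.09, 12.02 and 12.05 on the SUDHL2 arrays, 54.8-fold higher in SUDHL2 (-5.78 ± 0.18, adjusted p = 2.77e-12). HK2, the inducible hexokinase at the centre of the study, read 11.12, 11.28 and 11.01 against 10.86, 10.91 and 10.75 (0.30 ± 0.12, adjusted p = 0.0443). Its labels did not overlap, but the call was lost without HLY replicate 1 (adjusted p = 0.0792) or 2 (0.152), without SUDHL2 replicate 1 (0.0580), 2 (0.0581) or 3 (0.128) at 1%, and without SUDHL2 replicate 2 at 21% (0.0504), and a second HK2 probe differed by -0.11. SLC2A1, the glucose transporter GLUT1, read 10.32, 10.17 and 10.10 against 11.09, 11 and 10.94 (-0.81 ± 0.13, adjusted p = 6.02e-05, but 0.0628 under median centring). The muscle phosphofructokinase PFKM differed by 1.20 ± 0.14. PDK1, which diverts pyruvate from mitochondria, did not pass (0.38 ± 0.17, adjusted p = 0.059), but did under median centring (0.73, adjusted p = 0.026) and in the deposited scores (adjusted p = 0.0385).

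Respiratory chain and ATP synthase genes, the class by which OxPhos lymphomas are known, had no common side. Of 68 tested, 15 were higher in HLY, 17 in SUDHL2 and 36 did not pass, with a median of 0.07 that turned to -0.05 in the deposited scores. The complex I subunit NDUFB1 read 6.30, 5.81 and 5.76 against 7.80, 7.81 and 8.13 (-1.96 ± 0.22), NDUFA8 and NDUFS3 of the same complex differed by -1.44 ± 0.13 and -1.13 ± 0.13, UQCRC2 of complex III by -1.35 ± 0.16, and NDUFA7 lay on the HLY side (1.56 ± 0.14).

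Lipid synthesis genes differed strongly in single members. Of 25, 11 (44.0%) were higher in SUDHL2 and 8 (32.0%) in HLY, against 33.1% and 33.4% of all genes (median 0.02). FADS1, a desaturase of polyunsaturated fatty acids, read 4.59, 4.43 and 4.43 against 9.0, 8.99 and 8.96 (at least 9.52-fold higher in SUDHL2, adjusted p = 5.61e-13), and its neighbour FADS2 was at least 2.16-fold higher in SUDHL2. SREBF1, the regulator of fatty acid synthesis, read 10.97, 11.02 and 11.22 against 7.14, 7.49 and 7.56 (3.67 ± 0.16, adjusted p = 8.77e-11), and ELOVL6, which lengthens fatty acids, differed by 2.86 ± 0.17. INSIG1, which holds back SREBP processing, lay on the SUDHL2 side (-3.60 ± 0.18), and INSIG2, its HIF-responsive relative, on the HLY side (1.66 ± 0.17).

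Targets of ATF4, the factor of amino acid shortage and the integrated stress response, lay on the HLY side, with 16 of 18 higher in HLY and 1 in SUDHL2 (median 1.03). ASNS, which makes asparagine, read 12.85, 12.79 and 12.76 on the HLY arrays and 10.70, 10.86 and 10.48 on the SUDHL2 arrays (4.35-fold, 2.12 ± 0.13, adjusted p = 2.06e-09). The amino acid carrier SLC38A2, the glutathione-degrading CHAC1 and the factor CEBPB differed by 2.71 ± 0.15, 2.53 ± 0.16 and 1.86 ± 0.12. Genes of endoplasmic reticulum chaperones did not share this side, with 8 of 19 higher in SUDHL2 and 7 in HLY and a median of -0.05 that turned to 0.22 under median centring and to 0.03 in the deposited scores. HSPA5 (BiP) and HSP90B1 (GRP94) were higher in HLY by 1.48 ± 0.18 and 1.73 ± 0.12. Among heat shock chaperones 8 of 17 were higher in SUDHL2 and 2 in HLY (median -0.28, and 4, 2 and -0.05 under median centring), with HSPA4 at -1.22 ± 0.14, HSPH1 at -1.03 ± 0.13 and BAG3 on the HLY side at 1.28 ± 0.14.

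Redox genes as a list stood near all genes, while single isoforms differed. Of 31, 13 (41.9%) were higher in SUDHL2 and 11 (35.5%) in HLY, against 33.1% and 33.4% of all genes. The median of -0.21 turned to 0.03 under median centring. MGST1, a membrane-bound glutathione transferase, read 11.94, 11.81 and 11.80 on the HLY arrays and 4.55, 4.69 and 4.80 on the SUDHL2 arrays (at least 58.3-fold higher in HLY, adjusted p = 4.78e-15). MGST2, its relative, read 4.70, 5.04 and 4.99 against 10.80, 10.83 and 10.86 (at least 34.3-fold higher in SUDHL2, adjusted p = 4.02e-12), and MGST3 differed by 3.14 ± 0.12. GSTP1, the main soluble transferase of many tumours, read 8.13, 8.4 and 8.34 against 14.01, 14.02 and 14.18 (55-fold higher in SUDHL2, -5.78 ± 0.40). The peroxidase GPX7 was at least 35.9-fold higher in SUDHL2, GSTO1 differed by -2.74 ± 0.13 and the glutaredoxin GLRX by 2.46 ± 0.15.

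Of 25 genes of mitosis, 13 were higher in HLY and 4 in SUDHL2 (median 0.34), and of 20 genes that license replication, 9 were higher in SUDHL2 and 4 in HLY (median -0.25, and 2 in HLY without HLY replicate 1). Under median centring the licensing genes had no lean, with 5 higher in SUDHL2, 4 in HLY and a median of -0.02. The checkpoint kinase TTK, the kinesin CENPE and CDK1 differed by 2.42 ± 0.19, 2.20 ± 0.14 and 1.74 ± 0.20, and MKI67, the proliferation antigen, was at least 3.31-fold higher in HLY. MCM2 and MCM4 of the replicative helicase differed by -0.93 ± 0.14 and -0.92 ± 0.12. Of the D-type cyclins, CCND3 read 9.56, 9.75 and 9.60 against 13.57, 13.45 and 13.36 (-3.82 ± 0.14, adjusted p = 9.68e-12), opposite to CCND2. CCNE1 differed by -1.86 ± 0.12, and the inhibitor CDKN1B by 1.61 ± 0.15. CDC25A and CDC25C did not pass (0.02 ± 0.14 and 0.12 ± 0.18), while CDC25B, which starts mitosis, differed by 2.30 ± 0.17.

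Of 21 p53 target genes, 14 were higher in HLY and 2 in SUDHL2 (median 0.77). CDKN1A, the arrest gene p21, read 12.21, 12.32 and 12.34 on the HLY arrays and 8.29, 8.24 and 8.13 on the SUDHL2 arrays (16.8-fold, 4.07 ± 0.13, adjusted p = 2.96e-12). TP53INP1 and GADD45A differed by 5.05 ± 0.13 and 3.37 ± 0.20, and MDM2, which degrades p53, was at least 2.78-fold higher in HLY. At 9p21, MTAP, the enzyme that salvages methionine, read 4.66, 4.68 and 4.89 against 8.08, 7.76 and 7.78 (at least 4.41-fold higher in SUDHL2, adjusted p = 4.88e-10), and its neighbour CDKN2B was at least 1.22-fold higher in HLY. CDKN2A read 9.63, 8.82 and 9.71 against 7.91, 8.88 and 9.16, with overlap, and its call (adjusted p = 0.0293) was lost without HLY replicate 1 (0.102) or 3 (0.119) or SUDHL2 replicate 1 (0.147). In the list of DNA-editing APOBEC3 genes, which also holds the uracil glycosylase UNG, 5 of 7 members were higher in HLY and 2 in SUDHL2. Its median was 1.94, with bounds 1.12, and -0.91 over the 2 members detected on all 12 arrays. APOBEC3B was at least 6.43-fold and APOBEC3H at least 4.62-fold higher in HLY, and UNG differed by -1.40 ± 0.14. Interferon-stimulated genes stood near the shares of all genes, 33.4% and 33.1%, with 8 of 20 (40.0%) higher in HLY and 6 (30.0%) in SUDHL2 (median 0.06). OAS2 differed by 3.39 ± 0.13 and SAMD9 by 3.14 ± 0.19, while IFITM2 and MX2 were at least 15.7-fold and at least 5.4-fold higher in SUDHL2.

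Most cytosolic ribosomal protein genes did not pass, with 55 of 73 short of the threshold, 12 higher in HLY and 6 in SUDHL2 and a median of 0.03 that turned to -0.29 in the deposited scores. A few stood out. RPL26L1, a copy of RPL26, read 4.85, 5.06 and 4.89 on the HLY arrays and 10.50, 10.15 and 10.02 on the SUDHL2 arrays (at least 22.5-fold higher in SUDHL2, adjusted p = 2.58e-12), and RPS23 read 10.70, 10.69 and 10.64 against 7.07, 6.87 and 6.91 (3.73 ± 0.11). RPL28 and RPL36A differed by 1.99 ± 0.16 and 2.02 ± 0.13. Ribosomal protein genes have many processed copies, so that a single probe is uncertain. The mitochondrial ribosomal genes MRPL41, MRPL43 and MRPS2 lay on the SUDHL2 side (-2.36 ± 0.18, -2.18 ± 0.14 and -1.97 ± 0.17).

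Markers of other cell types were few. Of 16 T cell markers with a named probe, 13 were above background on no array at 1%, CD3D, CD3E and LCK among them, and 11 of 12 NK cell, 10 of 14 myeloid, 10 of 12 stromal and 8 of 10 epithelial markers likewise. The exceptions could be large. GZMA, a granzyme of cytotoxic lymphocytes, read 10.69, 10.74 and 10.78 on the HLY arrays and 4.62, 4.89 and 4.63 on the SUDHL2 arrays (at least 27-fold higher in HLY), while GZMB, NKG7 and PRF1 were above background on none of the 12 arrays. PECAM1, the endothelial and leukocyte antigen CD31, stood on the HLY side (at least 6.09-fold higher), and MUC1, a mucin of epithelia and plasma cells, read 11.39, 11.52 and 11.44 against 5.83, 5.18 and 6.18 (5.72 ± 0.20). MUC1 was above background on 1 SUDHL2 array at 1%. EPCAM, an epithelial adhesion molecule, read 5.02, 4.56 and 4.79 against 9.97, 9.69 and 9.67 (at least 16.5-fold higher in SUDHL2), while KRT8, KRT18 and CDH1 were above background on no array. The receptor kinase MET was higher on the SUDHL2 arrays (-2.97 ± 0.18). The summed levels of the tested T cell, NK cell, myeloid, stromal and epithelial markers at 1% spanned 238 to 290, 1656 to 1761, 804 to 1014, 1113 to 1174 and 2722 to 2954 on the HLY arrays, and 158 to 182, 25 to 30, 946 to 1131, 199 to 245 and 863 to 1058 on the SUDHL2 arrays, from 2, 1, 3, 2 and 2 genes. The part of other cells in the differences was not tested.

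Of 53 genes that the study names for its arrays, a list chosen on these samples, 32 were higher in HLY, 16 in SUDHL2 and 5 did not pass at 1% (median 1.13). Apart from those above, the RNase P component RPP25 exceeded background in SUDHL2 alone (at least 19.1-fold higher), as did the adenosine receptor ADORA2B (at least 4.89-fold), while CYB5A, an electron carrier, did so in HLY alone (at least 12.4-fold). RRAGD, which recruits mTORC1 to lysosomes, the calcium channel ITPR1 and the neuronal growth gene DPYSL2 were higher in HLY by 2.85 ± 0.13, 3.28 ± 0.16 and 3.05 ± 0.16. The kinase PIM1, the mitochondrial dehydrogenase subunit IDH3A and the RNA polymerase III subunit POLR3K lay on the SUDHL2 side (-1.65 ± 0.14, -1.51 ± 0.17 and -1.71 ± 0.12).

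The same labels were compared at 21% oxygen to ask whether the difference depends on oxygen. There, 3144 genes (32.7%) were higher on the HLY arrays and 3063 (31.8%) on the SUDHL2 arrays, and the difference at 1% differed from that at 21% for 7100 genes (73.8%). Genes such as MS4A1 and TNFRSF17 above changed sides between the oxygen levels. Since the arrays group across the labels, the difference at 1% was also set against the 21% difference with the labels exchanged, SUDHL2 minus HLY. By this contrast 425 genes (4.42%) were higher and 127 (1.32%) lower at 1%. It equals the change from the SUDHL2 arrays at 21% to the HLY arrays at 1%, less the change from the HLY arrays at 21% to the SUDHL2 arrays at 1%. The counts depend on single arrays and on scaling. Leaving out HLY replicate 1, 2 or 3 at 1% gave 242, 163 and 243 higher and 67, 35 and 63 lower, leaving out SUDHL2 replicate 1, 2 or 3 gave 924, 158 and 178 higher and 423, 35 and 46 lower, leaving out SUDHL2 replicate 2 at 21% gave 218 higher and 46 lower, and median centring gave 6 higher and 0 lower.

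Of the 29 HIF targets tested, 8 were higher and 1 lower by this contrast, against 4.42% and 1.32% of all genes. ANKRD37, a HIF target of unsettled function, read 10.74, 10.20 and 10.65 on the HLY arrays and 8.57, 8.76 and 8.65 on the SUDHL2 arrays at 1%, and 7.58, 7.56 and 7.49 on the HLY and 6.81, 6.81 and 6.83 on the SUDHL2 arrays at 21%. All 1% arrays were above all 21% arrays, and the contrast was 2.60 ± 0.20 (adjusted p = 1.95e-05). PFKFB4, which sets the level of a glycolytic activator, read 9.53, 9.67 and 9.72 and 6.99, 6.50 and 6.14 at 1%, and 5.12, 5.32 and 5.62 and 6.01, 6.35 and 5.82 at 21%, in the same order of labels (2.39 ± 0.29, adjusted p = 0.0014). Here the HLY arrays at 1% stood far above the other 3 groups. PFKFB3, its relative, gave 1.92 ± 0.18 (adjusted p = 0.000142) and HILPDA, which stores lipid in hypoxia, 2.14 ± 0.22 (adjusted p = 0.000332). FOS, an immediate early gene, read 7.61, 7.69 and 7.42 on the HLY arrays at 1%, at least 3-fold higher than on the SUDHL2 arrays at 1%, and was at background on the other 9 arrays. It passed by this contrast (adjusted p = 9.85e-06), but with 3 of the groups at background its size depends on the processing, and it was 1.30 without background correction and 1.01 in the deposited scores. These 5 genes passed the threshold in every setting in which they were tested, 13 for FOS, which fell below the detection filter without any 1 HLY array and where detection on all 12 arrays was asked for, 16 for PFKFB4 and 17 for ANKRD37, PFKFB3 and HILPDA. They were 5 of the 6 genes left under median centring. NDRG1, DDIT4 and BHLHE40 showed no difference past the threshold by this contrast (-0.39 ± 0.35, -0.27 ± 0.22 and 0.24 ± 0.21).

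Further genes higher by this contrast were SAMSN1, an adaptor that restrains B-cell signalling (1.95), RASSF6 (2.07), TMF1 (2.13), TAF1D (1.78) and PIBF1 (1.67), and EGR1, an immediate early gene, at 8.42, 8.26 and 8.26 on the HLY and 5.24, 5.07 and 5.09 on the SUDHL2 arrays at 1% (1.55 ± 0.16, adjusted p = 0.000332). HK2 gave 0.87 ± 0.17 (adjusted p = 0.0157). Among the lowest genes were ZBTB32, a repressor in plasma cell differentiation (-1.76 ± 0.20, adjusted p = 0.000676), POLR3A (-1.35), GANAB (-1.33), DNAJB1 (-1.33), the heat shock factor HSF1 (-1.32), B3GAT3 (-1.32), GPR25 (-1.25), NRROS (-1.25) and MYO19 (-1.23). Under median centring none of the genes in this paragraph that were followed under each setting, all but EGR1 and HK2, passed the threshold. HSF1 passed in 5 of 15 settings, NRROS in 9 of 17 and B3GAT3 in 15 of 17, and HSF1 lost its call under the replicate block (adjusted p = 0.0698).

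**Figure D4:**
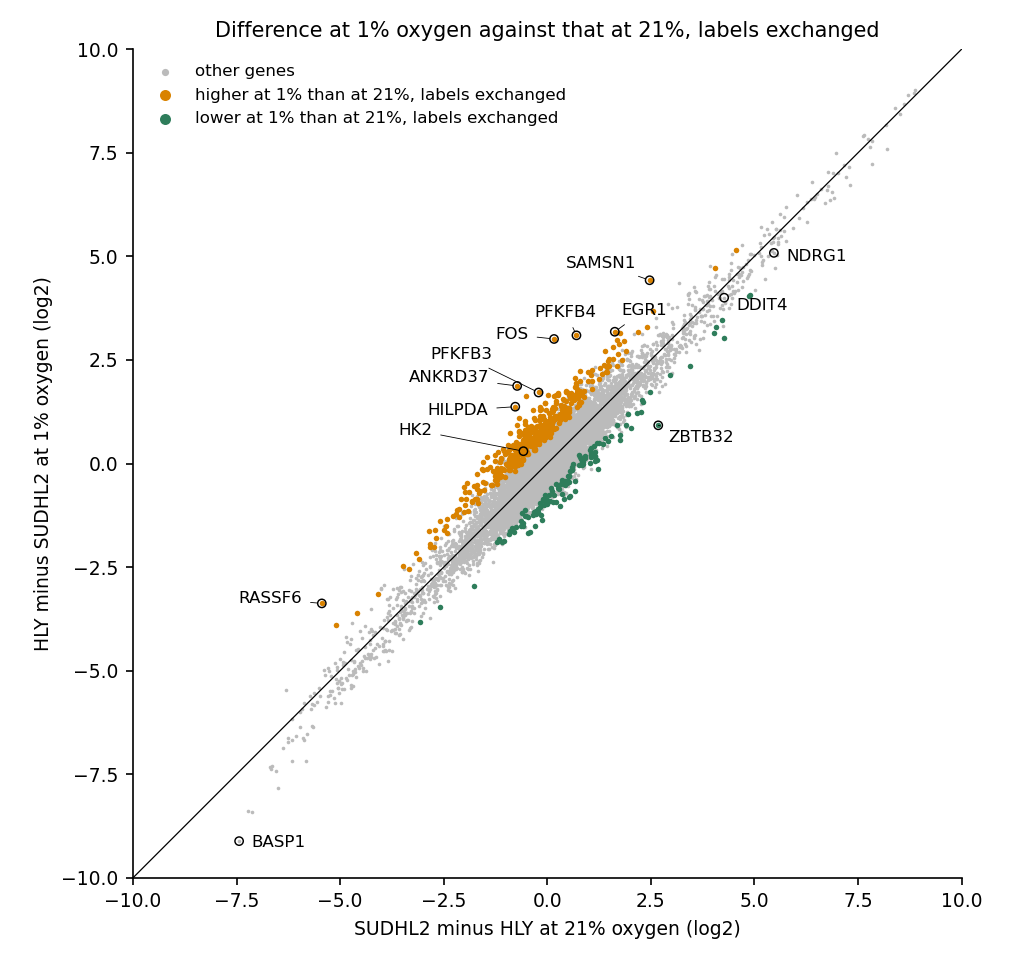
Difference HLY minus SUDHL2 at 1% oxygen (vertical, log2) of each gene against the difference SUDHL2 minus HLY at 21% oxygen (horizontal, log2), with the line of equality and the genes past the threshold of the exchanged-label contrast in orange (higher) and green (lower). Most genes lie along the line, and FOS, ANKRD37, PFKFB4, HILPDA and PFKFB3 lie above it.

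The differences at 1% were not spread evenly over chromosomes. On chromosome 8, 57.1% of 354 tested genes were higher in HLY and 18.6% in SUDHL2 (median 0.55), and on chromosome 11, 17.1% of 560 and 56.4% (median -0.57). Chromosome 12 leaned to HLY (48.3% and 21.9%) and chromosomes 13, 15 and 17 to SUDHL2 (45.9%, 45.5% and 42.1% higher in SUDHL2), while chromosome 1 held near the shares of all genes (33.7% and 31.2%). At 21% oxygen the medians were -0.45 for chromosome 8 and 0.46 for chromosome 11, HLY minus SUDHL2. In RefSeq order, runs of 25 neighbouring tested genes reached further. On chromosome X the run from IDS to CCNQ had 22 genes higher in SUDHL2 and 2 in HLY (median -1.88), and the run from PIM2 to SSX2 had 15 higher in HLY and 5 in SUDHL2 (median 1.78). The run from ZNF777 to INSIG1 on chromosome 7 had 20 higher in SUDHL2 and 0 in HLY (median -1.74), that from POLD4 to TPCN2 on chromosome 11, 21 and 1 (median -1.58), and that from ZFYVE27 to LZTS2 on chromosome 10, 22 and 2 (median -1.52). On the HLY side were the run from EXT1 to TRIB1 on chromosome 8, with 22 higher in HLY and 2 in SUDHL2 (median 1.49), and that from SMIM8 to ATG5 on chromosome 6, with 23 and 1 (median 1.47). These runs are among the most extreme of 9055, chosen by these values, and runs that share genes are not separate. Chromosome X also holds the GAGE copies, whose probes can read each other's RNA. How many genes of the run from PIM2 to SSX2 are such copies was not counted, so its counts and median are uncertain. At 21% the same runs took the other sign, from -1.50 for PIM2 to SSX2 to 1.64 for IDS to CCNQ.

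**Figure D5:**
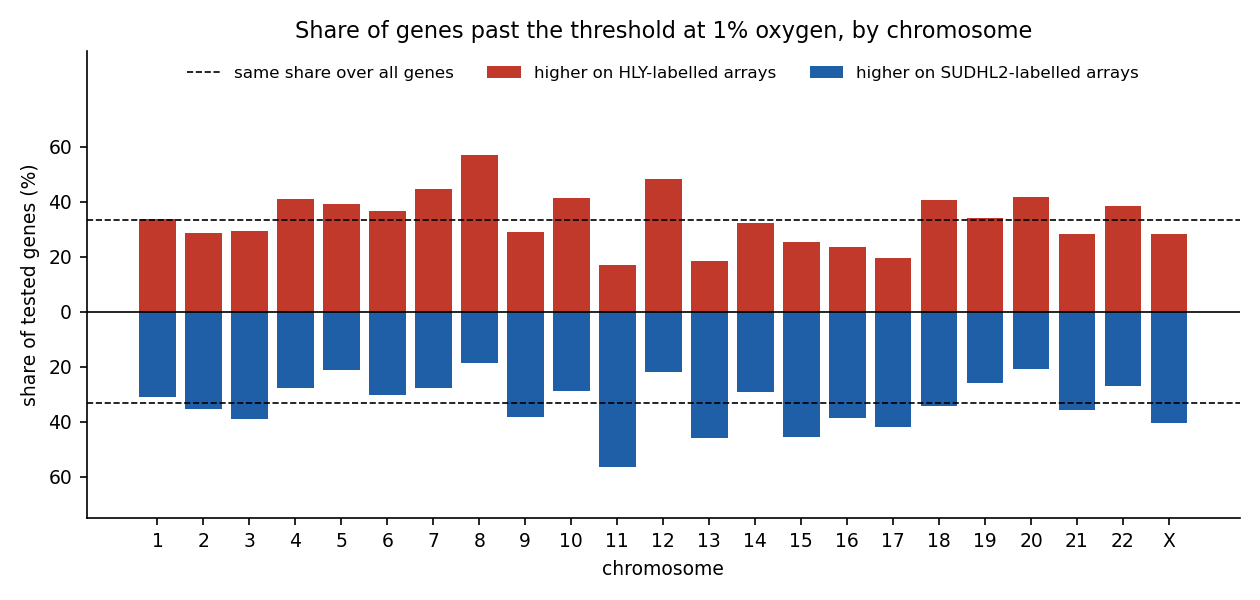
Share of the tested genes of each chromosome, in percent, that were higher on the HLY-labelled arrays (red, upward) or on the SUDHL2-labelled arrays (blue, downward) at 1% oxygen, with dashed lines at the shares over all genes. Chromosomes 8 and 12 reach highest in red and chromosome 11 lowest in blue.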

How the data were processed

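RNA of 12 cultures was read on Illumina HumanHT-12 v4 arrays. The authors deposited a bead-averaged fluorescence intensity and a detection p-value per probe, not normalized, and a table of processed scores. The submitters' processing notes name GenomeStudio 2011.1. The deposited intensity values were background-corrected with normexp on the detection p-values, quantile-normalized with an offset of 16 and taken to log2 (neqc, limma 3.58.1, R 4.3.3). A probe entered the analysis if 3 or more of the 12 arrays gave it a detection p below 0.01 (16288 probes, 12684 with a symbol), and the brightest stood for its gene (9621 genes). Tables and plots were made in Python 3.11.15 with pandas 2.3.3 and matplotlib 3.10.9.

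limma's moderated test was fitted to the 4 groups of label and oxygen (residual df 8, prior df 5.71), with Benjamini-Hochberg adjustment at 0.05. The fit was tested on simulated data. The contrasts were HLY minus SUDHL2 at 1%, the same at 21%, their difference, and the difference with the 21% labels exchanged. Of the two-sided exact permutation test of single genes, only the smallest possible p of 0.1 is used. It holds for genes whose labels do not overlap. The number of arrays limits the precision.

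Named genes were the 15 largest non-overlapping differences each way, up to 6 members of each list, standard B cell markers, genes the study names, and the 10 largest each way of the exchanged-label contrast. XIST, Y-linked genes, and LOC or open reading frame names were left out. Members and lists were chosen with earlier results of these data known. Alternatives changed the background correction, scaling, arrays, detection filter, probe rule, prior, replicate block and size limit. Fits with an array left out redid the normalization, the detection filter and the choice of the brightest probe. The value for the gene lists, the windows of neighbouring genes and the array left out at 21% were added after seeing the data. Promoters are from RefSeq (GRCh38.p14), and gene order is from RefSeq.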

Additional observations from a re-analysis of the deposited data

Results flagged for a closer look

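The difference between the labels at 1% oxygen differed from that at 21% for 7100 genes in limma's fit, the test of the difference itself. The arrays group across the labels between the oxygen levels, so this count belongs to the labels as given. With the 21% labels exchanged, 425 genes were higher and 127 lower at 1%. The 30 leading genes at 1% were all among the 7100 genes of the comparison under the same labels. Given as the difference at 1% less that at 21%, both HLY minus SUDHL2 on the log2 scale, the 15 genes higher in HLY at 1% gave 17.88 (GAGE4), 17.79 (DHRS2), 17.60 (GAGE12G), 17.30 (GAGE12F), 16.97 (GAGE12J), 16.96 (GAGE12C), 16.33 (GAGE12B), 15.78 (GAGE12H), 15.63 (ITM2A), 15.58 (TRIB1), 15.57 (GAGE2A), 15.53 (ASZ1), 15.44 (YBX3), 15.05 (CCND2) and 14.47 (GAGE7). The 15 higher in SUDHL2 gave -16.55 (BASP1), -15.62 (TCL1A), -15.55 (CTSH), -14.34 (CD81), -14.03 (TPM2), -14.02 (CXCR5), -13.97 (LTB), -13.94 (NAPSB), -13.34 (LMO2), -13.24 (PLEK), -13.01 (SGPP2), -12.97 (OLFML2A), -12.83 (ARHGAP17), -12.54 (ACTG2) and -12.54 (IRF8). Each value adds 2 differences, most of them against groups at background, so that its size depends on how dim probes were treated, and neither an exact size nor an order is read from it. Every one of these genes is high on 1 label at 1% and on the other label at 21%. Groups of 3 arrays are too small for a test of single stray arrays.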

How the results depend on the processing

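No named gene changed direction past the threshold under the alternatives run. Balances of some lists did change side. Cytosolic ribosomal genes, 12 higher in HLY and 6 in SUDHL2, gave 9 and 11 in the deposited scores. Cancer-testis genes, 11 and 9, gave 2 and 4 with detection on all 12 arrays. Of 3217 genes higher in HLY and 3189 higher in SUDHL2, leaving out 1 array at 1% gave 2979 to 3253 and 2956 to 3138. Detection on all 12 arrays, which leaves 6712 genes, gave 2015 higher in HLY and 2363 in SUDHL2, so that the larger side changed. Median centring gave 1654 higher in SUDHL2, and the cause was not tested. Of the 273 named genes, 259 kept their side of the threshold under median centring and 266 in the deposited scores. A limit of 1 log2 gave 1671 and 1506, and the methods' selection, a limit on the z-ratio of the deposited scores with tests of each gene, 496 and 432. The difference between oxygen levels under the same labels kept 6875 to 7138 genes with 1 array left out.

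The exchanged-label counts, 425 higher and 127 lower, moved most. Leaving out 1 array at 1% gave 158 to 924 higher and 35 to 423 lower, and leaving out SUDHL2 replicate 2 at 21%, chosen after seeing the data, 218 and 46. Median centring gave 6 and 0, a limit of 1 log2 gave 185 and 27, and no detection filter gave 277 higher. Of the lower genes, no background correction gave 275, the deposited scores 73, detection on all 12 arrays 210 and the trended robust prior 194.

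Same-numbered arrays at 1% showed no common pairing. Their deviations from the group mean correlated at -0.357, -0.265 and 0.275, and those of differently numbered arrays at -0.427 to 0.556. Deviations from a mean of 3 arrays are tied to each other, so these values cannot decide whether the numbers pair the arrays. With the replicate block the counts were 3190 and 3148 at 1%, 7087 between oxygen levels, and 331 and 77 with labels exchanged, and of the named genes HK2 lost its call at 1%. Of the genes followed by the exchanged-label contrast, HSF1 lost its call (adjusted p = 0.0698). HK2 also lost its call at 1% under median centring (adjusted p = 0.127), in the deposited scores and with the 6 arrays at 1% alone. Signal near background limits the differences of dim genes to lower bounds. Medians of lists that hold such genes were smaller without background correction and in the deposited scores (B cell surface markers -1.43 and -1.01 against -2.65, MHC class II 0.75 and 0.55 against 1.37). The median of interferon-stimulated genes, 0.06, was -0.01 without HLY replicate 3 and -0.02 without SUDHL2 replicate 1.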

Other observations

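Without collapsing probes to genes, 5152 of the 16288 kept probes were higher on the HLY arrays at 1% and 4959 on the SUDHL2 arrays, by the same fit. Of the 6406 genes past the threshold, 1700 had another kept probe, and in 1550 of them (91.2%) every other probe lay on the same side. Of the 94 named genes with another kept probe, 3 had one of opposite sign, HK2 among them.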
